A study of Homo sapiens with 21 samples.

Results

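The genes described here are 34 chaperones, folding enzymes, quality control factors and stress sensors of the endoplasmic reticulum (ER), measured in the human neuroblastoma line SH-SY5Y, which can be driven towards a neuronal state. They were drawn from a list of 35 genes by taking, for each, the probe set annotated to that symbol alone with the highest mean over all 21 Affymetrix PrimeView arrays, and stand among 18132 genes measured in the same way. KDELR2 had no such probe set and was not analysed here. There were 7 groups of 3 arrays. Cells of the APP-V717F mutated line, called APP cells, were treated with AG494 (APP_AG494), NOSCA (APP_NOSCA) or vehicle (APP_DMSO), and wild-type cells with AG494 (WT_AG494), NOSCA (WT_NOSCA), PALBO (WT_PALBO) or vehicle (WT_DMSO). V717F alters 1 residue of the amyloid precursor protein (APP) and was found in families with inherited Alzheimer's disease. The labels name 1 mutated line without saying how it was made or whether it is a single clone. Retinoic acid (10 µM) together with the neurotrophin BDNF (50 ng/mL) was given to every culture, controls included, over 3 to 4 days of differentiation. Exposure to compound or vehicle then lasted 72 h, always at a final 0.1% DMSO. AG494 is a tyrphostin that blocks the kinase of the EGF receptor, and NOSCA and PALBO are written as in the labels. The labels state no doses, so the compounds are set side by side at unknown doses. Treatment of APP cells with PALBO was not analysed here.

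Proteins that enter the ER fold with the help of the HSP70 chaperone BiP (HSPA5), its J-domain partners, the lectins calnexin and calreticulin and the protein disulfide isomerases. Misfolded chains are sent back to the cytosol for degradation, a route known as ER-associated degradation (ERAD). When unfolded protein builds up, the sensors ERN1 (IRE1), ATF6 and EIF2AK3 (PERK) start the unfolded protein response, in which the transcription factors XBP1 and ATF6 raise the transcription of many of these same genes. Neurons secrete and display large amounts of membrane protein, APP among them, and depend on this machinery.

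Values are log2 intensities, and differences are log2 fold changes with the standard error (SE) of 1 limma fit over all arrays. A gene was called changed at a Benjamini-Hochberg adjusted p under 0.05 over all 18132 genes. The numbers in the array titles form 3 runs, each with 1 array of every group. Arrays of a run deviated together, so counts are also given from a fit with the run as a replicate block. Where 1 array was left out, the fit held no block, so the level of its run also enters the change. Array medians lay between 7.88 and 8.03, and the number of arrays limits the precision. The series describes 3 independent experiments without saying which arrays belong to which, so p-values measure the spread between these arrays, which may in part be technical. In such bulk RNA, fewer cells of a type and less RNA per cell cannot be told apart, and the arrays read total transcript, so that the splicing of XBP1 was not seen. Levels of ER genes are compared between groups within a probe set only. The marker counts and averages, and the word dim, set different probe sets side by side and are a rough guide.

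APP transcript was measured first. It lay between 12.16 and 12.52 on the 9 arrays of APP cells and between 12.46 and 12.63 on the 12 arrays of WT cells. Under vehicle it read 12.26, 12.37 and 12.25 in APP_DMSO, against 12.49, 12.61 and 12.61 in WT_DMSO. The log2 fold change was -0.28 (SE 0.08, adjusted p = 0.041, limma). The alternative fits of this call are not reported here. Under NOSCA the means were 12.45 in APP_NOSCA and 12.5 in WT_NOSCA, with overlapping arrays. Under AG494 they were 12.38 in APP_AG494 and 12.53 in WT_AG494, also with overlap. The probe set reads the amount of transcript and cannot show the mutation. Of 21 noradrenergic neuroblast markers 19 were measured, and 14 to 18 of them lay above the median gene (8.44) in each group. Schwann and glial markers averaged 5.95 to 6.13 and immune markers 5.93 to 6.01 per group, with at most 1 gene of each list above the median gene. Of the 12 mesenchymal markers, 6 to 9 lay above it.

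In APP cells most of the ER genes lay higher with AG494 than with vehicle, by small amounts, and KDELR3 by more than the rest. Of the 34 genes, 32 lay above 0 in APP_AG494 relative to APP_DMSO, with a median log2 fold change of 0.18, against a median of -0.006 over all genes. Of all genes 48.1% lay above 0. Of the 34, 4 genes passed the threshold, all of them higher: KDELR3, CRELD2, EDEM1 and KDELR1. Of all genes 4.75% passed in either direction and 1.99% as higher. With the replicate block 15 members were called, all higher, against 4.72% of all genes called higher in that fit (11.8% called in either direction). For 21 members every APP_AG494 array lay above every APP_DMSO array, and for 0 members the arrays separated the other way. Of all genes, 9.06% separated upward and 10.9% downward. Within the runs, 29 of the 34 genes were higher in APP_AG494 in all 3 runs, and the share of all genes was not counted. Over the 14 alternative settings the median stayed between 0.18 and 0.23 and the number of genes above 0 between 31 and 33.

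**Figure D1:**
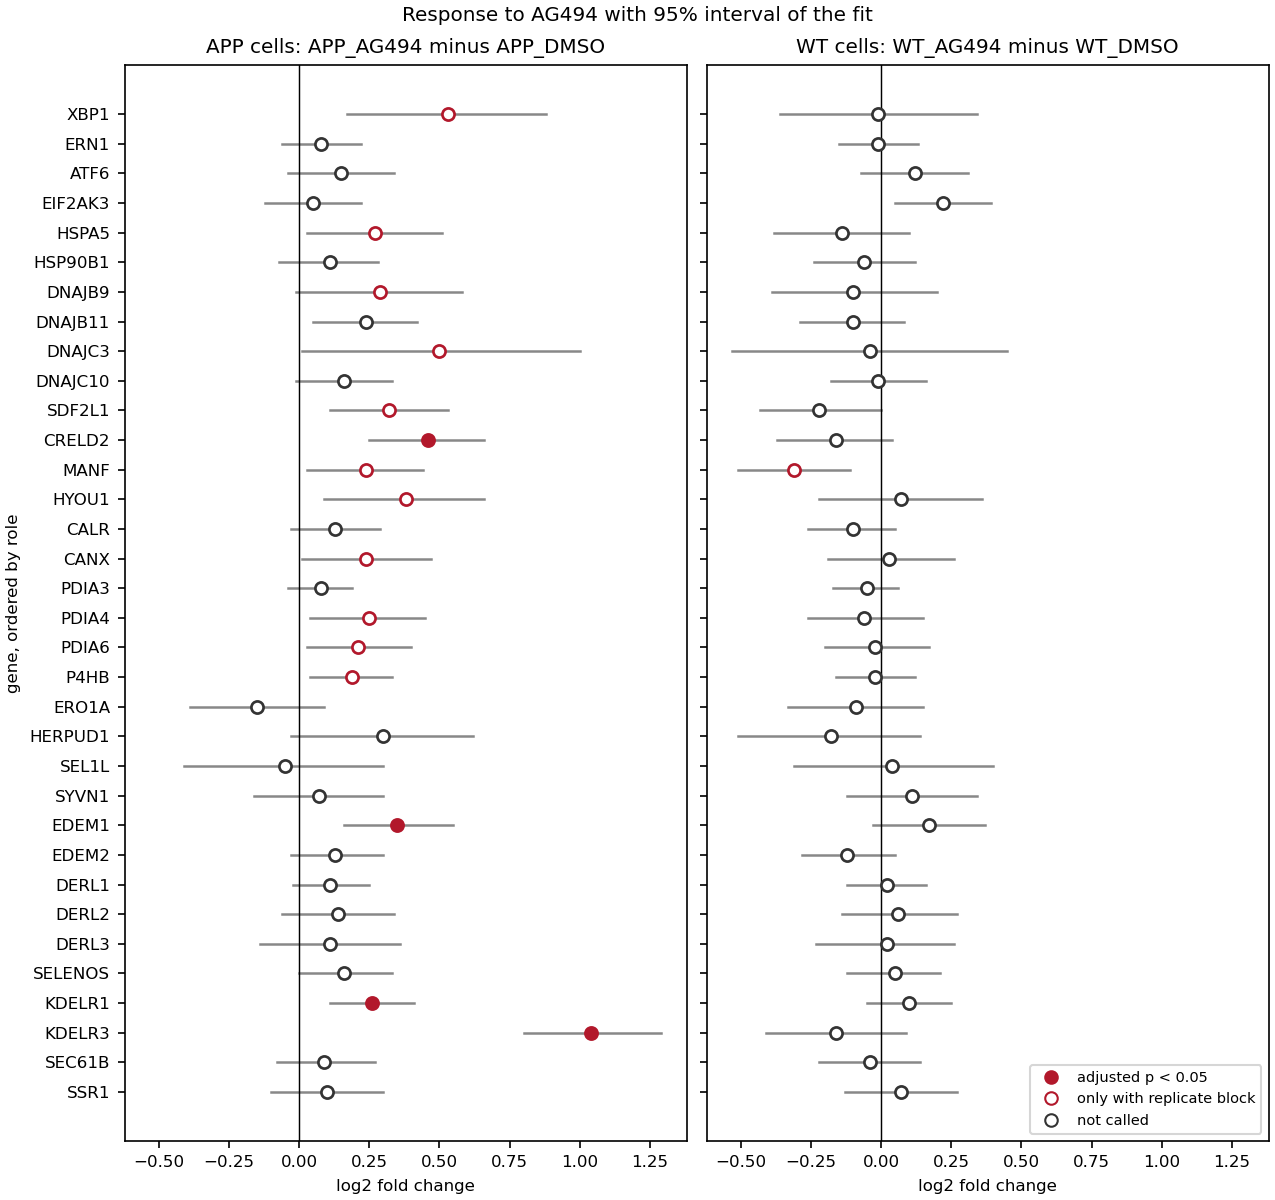
Log2 fold change (x axis) of each of the 34 ER genes (y axis, ordered by role) under AG494, in APP cells on the left and in WT cells on the right; lines are 95% intervals of the fit over 3 arrays a group. In APP cells 32 points lie right of 0 and 4 are filled as called, whereas in WT cells 13 lie right of 0 and none is filled.

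Among the sensors and transcription factors, XBP1 stood out. XBP1, the transcription factor activated when ERN1 splices its mRNA, read 10.31, 10.34 and 10.34 in APP_AG494, against 9.79, 10.0 and 9.62 in APP_DMSO. The APP_AG494 arrays lay close together and above every APP_DMSO array, whose own spread was wide. The log2 fold change was 0.53 (SE 0.17, adjusted p = 0.087, and 0.0034 with the replicate block). The sensors themselves gave smaller values that were not called: 0.15 for ATF6, 0.08 for ERN1 and 0.05 for EIF2AK3.

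The HSP70 and HSP90 chaperones and their partners all lay above 0 (10 of 10, median 0.28). CRELD2, an ER-resident protein known as a target of ER stress, read 12.31, 12.28 and 12.35 in APP_AG494, against 12.0, 11.96 and 11.61 in APP_DMSO. The arrays did not overlap, and the third APP_DMSO array was the lowest. CRELD2 rose by 0.46 (SE 0.1, adjusted p = 0.0085). Its call was lost without APP_DMSO replicate 3 (0.34, adjusted p = 0.056), with only the compared groups in the fit (0.078) and with the mean of its probe sets (0.13), the second of which is dim at 5.67. HSPA5, the central HSP70 of the ER, read 12.55, 12.3 and 12.41 in APP_AG494, against 12.23, 12.12 and 12.11 in APP_DMSO, a fold change of 0.27 (SE 0.11, adjusted p = 0.25, and 0.015 with the block). All 6 of its probe sets were higher, by 0.21 to 0.37. HYOU1, the nucleotide exchange factor of HSPA5, gave 0.38 (adjusted p = 0.15, 0.0087 with the block), and its 9 probe sets were all higher. DNAJC3, a co-chaperone that also inhibits PERK, gave 0.5 with the largest SE of the list (0.24, adjusted p = 0.3, 0.037 with the block). Its arrays read 9.36, 8.8 and 9.53 in APP_AG494, against 8.67, 8.26 and 9.25 in APP_DMSO, so that the groups overlapped although each run went up. SDF2L1, a partner of the J-domain protein DNAJB11, gave 0.32, MANF, a secreted ER protein with neurotrophic activity, 0.24, and DNAJB9, which holds ERN1 in check, 0.29, each called with the block only. Of the 3 probe sets of DNAJB9, 2 were higher and the lowest gave -0.24. DNAJB11 (0.24), DNAJC10, a J-domain protein that reduces disulfides (0.16), and HSP90B1, the HSP90 of the ER (0.11), passed neither fit.

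The lectin chaperones CANX and CALR, which hold glycoproteins during folding, gave 0.24 and 0.13, and CANX passed with the block (adjusted p = 0.0092). Of the disulfide enzymes, PDIA4 (0.25), PDIA6 (0.21) and P4HB (0.19) passed with the block only, while PDIA3, the partner of the lectins, gave 0.08. PDIA4 read 11.56, 11.6 and 11.61 in APP_AG494, against 11.37, 11.37 and 11.29 in APP_DMSO, without overlap. ERO1A, the oxidase that recharges the isomerases, had the lowest value of the list at -0.15 (adjusted p = 0.61). It read 8.8, 8.64 and 8.62 in APP_AG494, against 8.7, 8.63 and 9.19 in APP_DMSO, and the differences by run were 0.1, 0.01 and -0.57.

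Of the 9 ERAD genes 8 lay above 0, with a median of 0.13. EDEM1, which trims mannose from misfolded glycoproteins and so marks them for degradation, read 9.71, 9.81 and 9.7 in APP_AG494, against 9.38, 9.5 and 9.27 in APP_DMSO. It rose by 0.35 (SE 0.09, adjusted p = 0.035), and its 5 probe sets were all higher. The call held without APP_DMSO replicate 2 and was lost without any other of the 6 arrays (adjusted p 0.064 to 0.18), and with only the compared groups in the fit (0.086). HERPUD1, a scaffold of the ubiquitin ligase SYVN1, gave 0.3 with no overlap between arrays (SE 0.15, adjusted p = 0.37). SYVN1 itself gave 0.07 and its adaptor SEL1L -0.05, both with overlapping arrays. The derlins, membrane proteins of the retrotranslocation route, gave 0.11 (DERL1), 0.14 (DERL2) and 0.11 (DERL3), EDEM2 gave 0.13 and SELENOS 0.16, none of them called in either fit.

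The KDEL receptors return escaped chaperones from the Golgi to the ER, and both that were measured rose. KDELR3 read 7.45, 7.59 and 7.31 in APP_AG494, against 6.28, 6.6 and 6.34 in APP_DMSO. No other ER gene of the list moved as far: the log2 fold change was 1.04 (SE 0.12, adjusted p = 5.9e-05), or 2.06-fold. The call held in all 14 alternatives (0.83 to 1.14), and its second probe set gave 0.61. KDELR3 was dim, below the array medians in every group. KDELR1 read 12.23, 12.31 and 12.26 in APP_AG494, against 12.05, 12.12 and 11.84 in APP_DMSO, again without overlap. It rose by 0.26 (SE 0.07, adjusted p = 0.038), and its call also held only without APP_DMSO replicate 2 among the arrays left out (adjusted p 0.06 to 0.22 without the others). SEC61B, a subunit of the translocon, and SSR1, which sits beside it, gave 0.09 and 0.1 and were not called.

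Cell type markers, those of the line's own neuroblast type included, gave these values in the same comparison. The 12 mesenchymal markers averaged 9.24 to 9.42 per APP_AG494 array and 9.11 to 9.22 per APP_DMSO array, with 1 called, FAP (0.55, adjusted p = 0.013). The 11 immune markers averaged 5.97 to 6.05 per APP_AG494 array and 5.95 to 5.99 per APP_DMSO array, with 1 called, CD68 (0.52, adjusted p = 0.0024), and of the 11 Schwann and glial markers none was called. Of the 19 neuroblast markers 1 was called, the neuroendocrine transcription factor INSM1, which fell by 2.76 (adjusted p = 6.6e-06). With the block 1 neuroblast marker was higher and 3 were lower, against 4.72% and 7.06% of all genes. The neuroblast list averaged 11.09 to 11.22 per APP_AG494 array and 11.25 to 11.38 per APP_DMSO array, without overlap. That average includes INSM1, and the median marker gave -0.03. The Schwann and glial list averaged 6.0 to 6.06 per APP_AG494 array and 5.92 to 5.99 per APP_DMSO array, also without overlap. The part of these in the ER result was not tested.

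**Figure D2:**
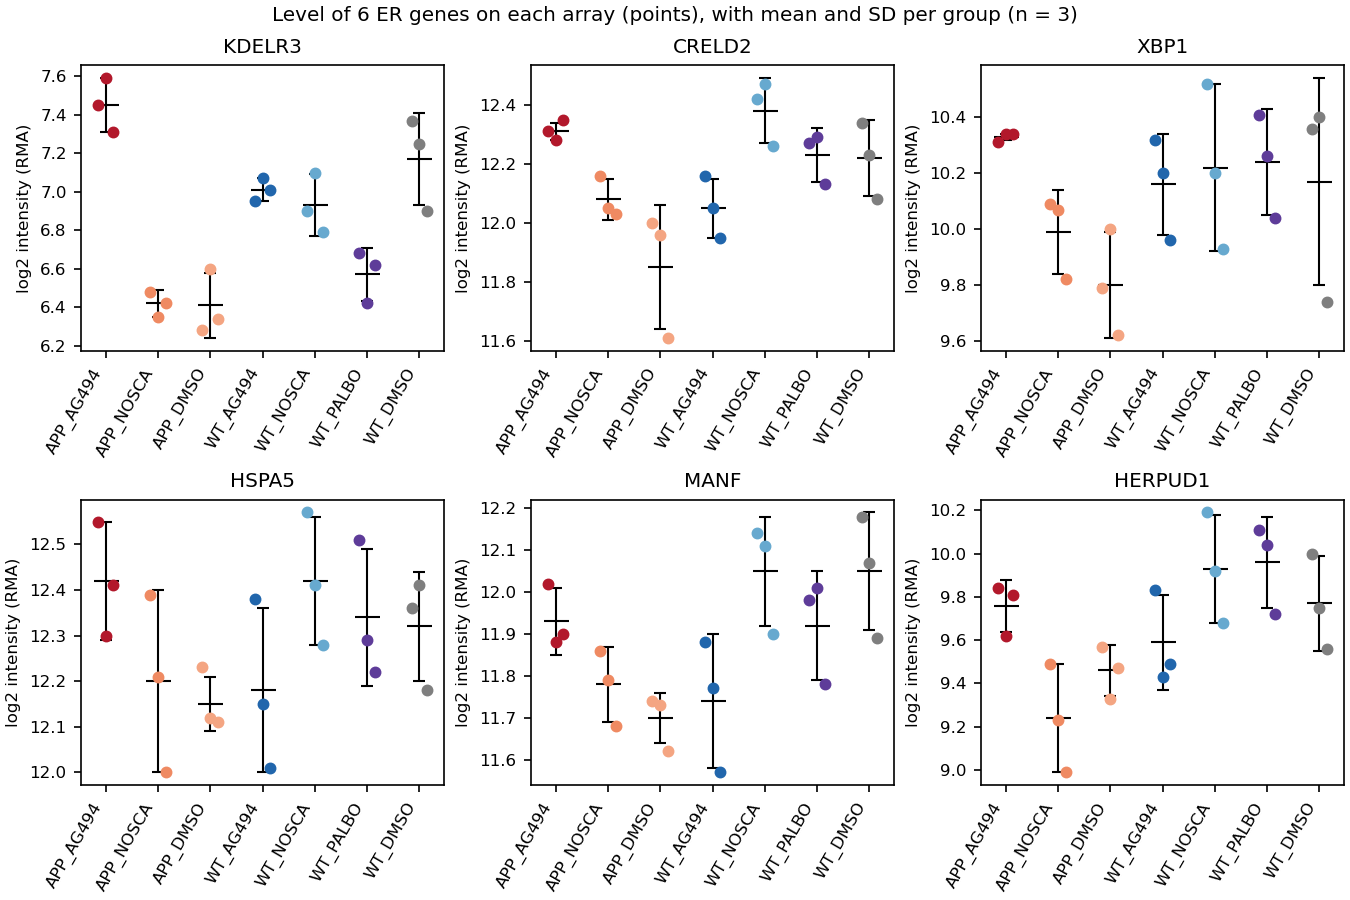
Log2 intensity (y axis) of 6 ER genes on every array (points) by group (x axis), with the mean and SD of 3 arrays. KDELR3 is at 7.31 to 7.59 in APP_AG494 and at 6.28 to 6.6 in APP_DMSO, and the other 5 genes also have all APP_AG494 arrays above the APP_DMSO arrays.

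In WT cells the ER genes lay on both sides of 0 with AG494. Their median was -0.02, 13 of 34 lay above 0, and limma called 0 of them, against 0.254% of all genes. Of all genes 48.0% lay above 0. At an unadjusted limma p under 0.05 there were 3 of the 34, and 1474 of all 18132 genes. With the replicate block MANF was called and fell, with a log2 fold change of -0.31 (adjusted p = 0.25 without the block, 0.0071 with it), and 1.97% of all genes were called. MANF read 11.88, 11.77 and 11.57 in WT_AG494, against 12.18, 12.07 and 11.89 in WT_DMSO, without overlap. HSPA5 read 12.38, 12.15 and 12.01 in WT_AG494, against 12.36, 12.41 and 12.18 in WT_DMSO, a value of -0.14 that was not called. XBP1 gave -0.01 and CRELD2 -0.16, also not called.

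The difference between the genotypes in the response to AG494 was tested as an interaction. KDELR3 was called: its response was larger in APP cells by 1.2 (SE 0.17, adjusted p = 0.004, 0.0386% of all genes called). In WT cells it read 6.95, 7.07 and 7.01 in WT_AG494, against 7.37, 7.25 and 6.9 in WT_DMSO, a response of -0.16 that was not called. The interaction was called in all 20 alternatives (0.94 to 1.34), and within the runs it was 1.58, 1.17 and 0.86. The median interaction over the 34 genes was 0.2, and 30 of them lay above 0, against a median of -0.0044 over all genes. Of all genes 48.7% lay above 0. With the replicate block HSPA5 (0.41), CRELD2 (0.62) and MANF (0.55) were called too, with adjusted p of 0.047, 0.0084 and 0.0042, while 1.26% of all genes were called. Without the block their adjusted p were 0.54, 0.13 and 0.17. The other 30 genes passed neither fit, XBP1 (0.53, adjusted p = 0.62) and DNAJC3 (0.54, adjusted p = 0.81) among them.

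**Figure D3:**
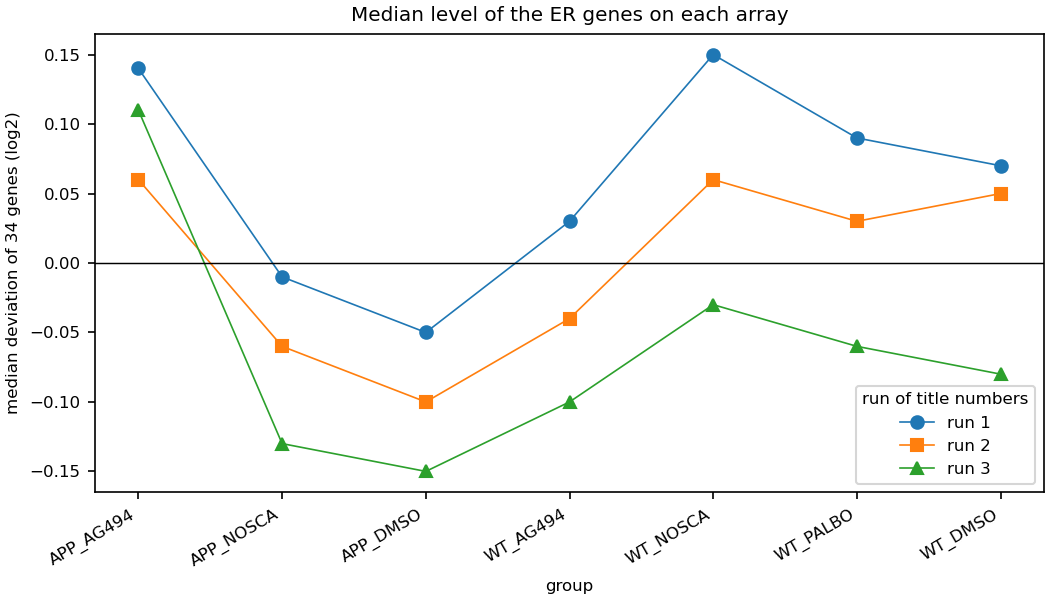
Median over the 34 ER genes of the deviation from each gene's own mean over all arrays (y axis, log2), for each array by group (x axis), with a line for each run of title numbers. The third run is lowest in 6 of the 7 groups, and in every run the APP_AG494 array lies above the APP_DMSO array.

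Under vehicle the ER genes of APP cells were mostly below those of WT cells. Their median log2 fold change was -0.08, 23 of the 34 lay below 0, and over all genes the median was 0.0221, with 56.1% above 0. The members' median moved with single arrays, to -0.05 without WT_DMSO replicate 1 and -0.13 without WT_DMSO replicate 3, and was -0.14 with centred array medians, with 8 to 13 genes above 0 over the 14 alternatives. There were 3 members called lower, KDELR3, CRELD2 and MANF, and SELENOS was called higher, against 9.25% of all genes called (5.2% higher and 4.05% lower). The replicate block called 10 members, 9 lower and 1 higher, and 17.4% of all genes (10.2% higher and 7.14% lower). This comparison and that of AG494 in APP cells share the APP_DMSO arrays, so that a low value there lowers one and raises the other. The runs differed in level, as the plot of medians by array shows: the members' median on the APP_DMSO arrays was -0.05, -0.1 and -0.15 in runs 1, 2 and 3, and on the WT_DMSO arrays 0.07, 0.05 and -0.08. In each run the APP_DMSO array was the lower.

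KDELR3 was lower in APP_DMSO by 0.76 on the log2 scale, from 6.28, 6.6 and 6.34 in APP_DMSO and 7.37, 7.25 and 6.9 in WT_DMSO. Its fold change of -0.76 (SE 0.12, adjusted p = 0.00021) was called in all 14 alternatives. CRELD2 read 12.0, 11.96 and 11.61 in APP_DMSO, against 12.34, 12.23 and 12.08 in WT_DMSO, and fell by 0.36 (SE 0.1, adjusted p = 0.024). MANF read 11.74, 11.73 and 11.62 in APP_DMSO, against 12.18, 12.07 and 11.89 in WT_DMSO, and fell by 0.35 (SE 0.1, adjusted p = 0.025). Neither gene overlapped between the groups. The call of CRELD2 was lost in 5 of 14 alternatives, among them without WT_DMSO replicate 1, WT_DMSO replicate 2 or APP_DMSO replicate 3 (adjusted p 0.071 to 0.14). That of MANF was lost in 6, and among arrays left out it held only without WT_DMSO replicate 3 (0.051 to 0.13 without the others). SELENOS, which links the degradation complex to the ATPase that extracts its clients, read 11.0, 10.97 and 11.08 in APP_DMSO, against 10.92, 10.73 and 10.59 in WT_DMSO. It rose by 0.27 (SE 0.08, adjusted p = 0.032), a call lost in 8 of 14 alternatives (adjusted p up to 0.29). Among arrays left out it held only without WT_DMSO replicate 1.

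Called with the block only were XBP1 (-0.37), SDF2L1 (-0.31), HERPUD1 (-0.31), PDIA6 (-0.26), EDEM1 (-0.21) and ERN1 (-0.19), with adjusted p between 0.0047 and 0.047 in that fit and between 0.064 and 0.27 in the fit without it. XBP1 read 9.79, 10.0 and 9.62 in APP_DMSO, against 10.36, 10.4 and 9.74 in WT_DMSO, and the third WT_DMSO array lay within the range of APP_DMSO. ATF6 went the other way at 0.17, with no overlap between arrays and no call (adjusted p = 0.3). Its 3 probe sets were all higher, by 0.17 to 0.56, and 2 of them, dimmer than the one used here, were called when all probe sets were tested.

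Cell type markers, those of the line's own neuroblast type included, also moved between the genotypes under vehicle. Of the 19 neuroblast markers 4 were called higher, among them INSM1 (1.71), CHGB (0.63) and CHGA (0.59), and 3 lower, and the list averaged 11.25 to 11.38 per APP_DMSO array and 10.98 to 11.28 per WT_DMSO array. Of the 12 mesenchymal markers 2 were higher, DCN (1.55) and FAP (0.55), and 2 lower, COL1A1 (-1.19) among them, with averages of 9.11 to 9.22 per APP_DMSO array and 8.9 to 9.26 per WT_DMSO array. S100B was lower (-1.01), 1 of 11 Schwann and glial markers, which averaged 5.92 to 5.99 per APP_DMSO array and 6.03 to 6.11 per WT_DMSO array. None of the 11 immune markers was called, with averages of 5.95 to 5.99 per APP_DMSO array and 5.94 to 5.99 per WT_DMSO array. Their part in the ER result was not tested.

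The genotypes were also compared within each compound, which shares no arrays with the vehicle comparison. The comparison under AG494 does share its arrays with the AG494 responses and the interaction above, so it is not independent of them. Under NOSCA the median was -0.13 (-0.17 to -0.08 over the alternatives, -0.08 without WT_NOSCA replicate 1). There 4 members were lower in APP cells and 1 higher, against 7.2% of all genes called (3.56% higher and 3.65% lower). With the block 9 members were lower and 1 was higher, against 14.8% of all genes (7.99% higher and 6.79% lower). HERPUD1 read 9.49, 9.23 and 8.99 in APP_NOSCA, against 10.19, 9.92 and 9.68 in WT_NOSCA, and fell by 0.69 (SE 0.15, adjusted p = 0.0072). The difference was near the same in each run (-0.7, -0.69 and -0.69), although the runs themselves stood apart. Without APP_NOSCA replicate 3 the call was lost (-0.57, adjusted p = 0.052), in a limma fit without the block, which does not pair the arrays by run. EIF2AK3, the kinase PERK, read 8.86, 8.85 and 8.87 in APP_NOSCA, against 9.34, 9.07 and 9.25 in WT_NOSCA, and fell by 0.36 (adjusted p = 0.0085, and 0.054 without WT_NOSCA replicate 1). PDIA4 fell by 0.35 (adjusted p = 0.035, held without WT_NOSCA replicate 3 and lost without any other array) and KDELR3 by 0.51 (adjusted p = 0.0092, and 0.065 without WT_NOSCA replicate 2). SELENOS rose by 0.29 (adjusted p = 0.026), a call lost in 6 of 14 alternatives (adjusted p up to 0.28), among them without APP_NOSCA replicate 1 or 3 and without WT_NOSCA replicate 2 or 3.

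Under AG494 the sign of the median turned: 29 of the 34 genes lay above 0 in APP cells, against 57.4% of all genes. The median was 0.15 (0.1 to 0.18 over the alternatives, 0.1 without WT_AG494 replicate 3). There were 3 calls, all higher, against 9.02% of all genes called (4.1% higher), and with the block 8, all higher, against 16.9% (8.45% higher). SELENOS read 11.19, 11.16 and 11.2 in APP_AG494, against 10.82, 10.74 and 10.81 in WT_AG494, and rose by 0.39 (SE 0.08, adjusted p = 0.0025), a call that held in all 14 alternatives. DNAJB9 read 9.03, 8.77 and 8.98 in APP_AG494, against 8.54, 8.24 and 8.56 in WT_AG494, and rose by 0.48 (SE 0.14, adjusted p = 0.037). The mean of its 3 probe sets gave 0.15 (adjusted p = 0.71), and the call was lost without replicate 1 of either group, WT_AG494 replicate 2 or APP_AG494 replicate 3 (0.06 to 0.18). KDELR3 rose by 0.44 (adjusted p = 0.021), against its fall under vehicle and NOSCA. That call was lost with the mean of its probe sets (0.27, adjusted p = 0.19) and without replicate 1 of either group, APP_AG494 replicate 2 or WT_AG494 replicate 3 (0.054 to 0.11). On its brighter probe set SELENOS was thus higher in APP cells under vehicle and under both compounds, with arrays that did not overlap in any of the 3 comparisons. Its second probe set gave 0.02 under vehicle, 0.03 under NOSCA and 0.22 under AG494. The mean of both gave 0.15 and 0.16 under vehicle and NOSCA, where the calls were lost (adjusted p = 0.29 and 0.28), and 0.31 under AG494, where the call held (0.015).

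By group mean, APP_AG494 was the highest of the 7 groups for 14 of the 34 genes and the lowest for 0, and APP_DMSO was the lowest for 15. WT_NOSCA was the highest for 9. These ranks ignore the spread between arrays and are given as a description.

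**Figure D4:**
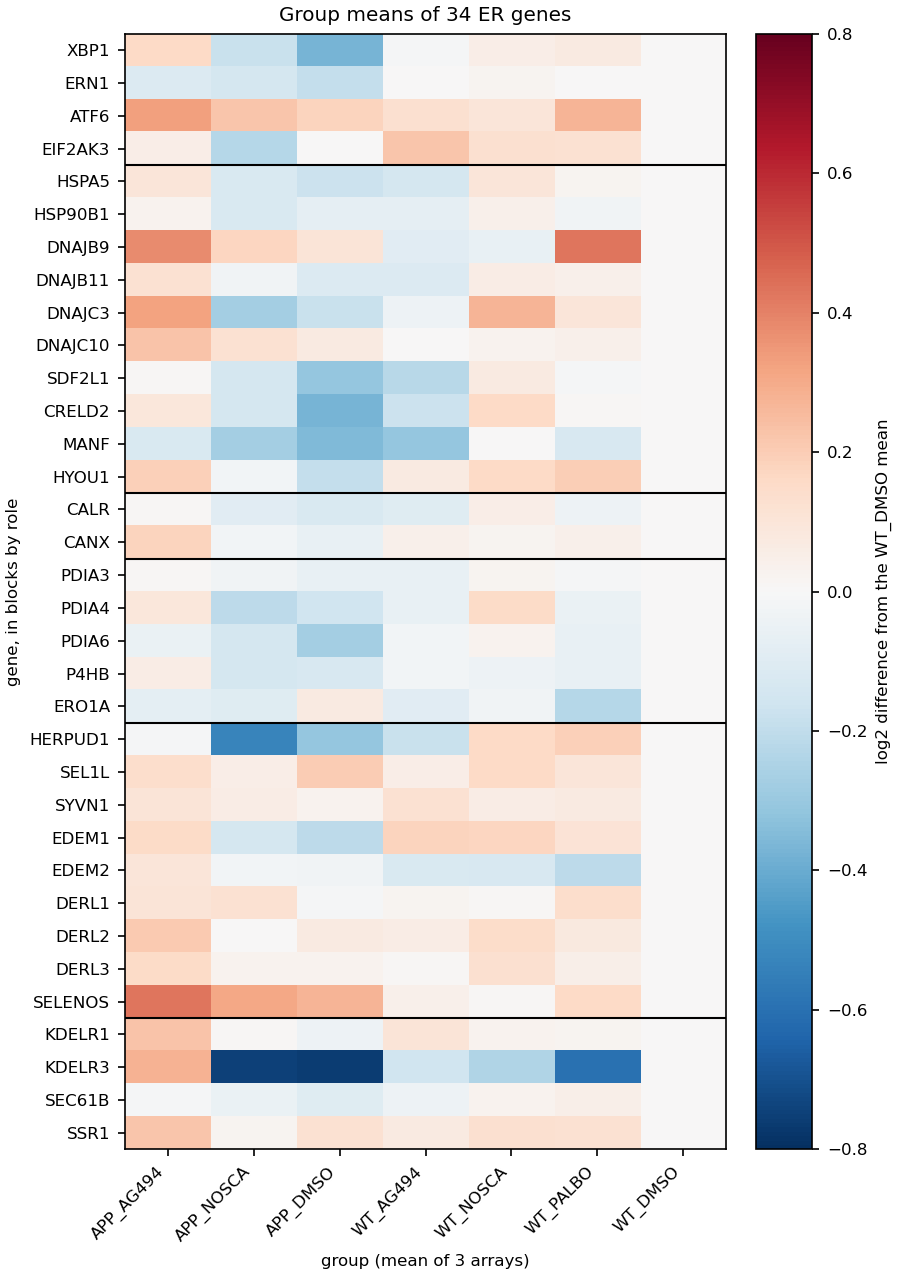
Difference of each group mean (x axis, 3 arrays) from the WT_DMSO mean for the 34 ER genes (y axis, in blocks by role), as a log2 colour scale. KDELR3 is at -0.76 in APP_DMSO and -0.6 in WT_PALBO, and SELENOS is at 0.27 in APP_DMSO.

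With PALBO in WT cells the median of the ER genes was 0.04 and 22 of 34 lay above 0, against 51.1% of all genes. Only 1 member was called, KDELR3, against 6.98% of all genes. It read 6.68, 6.42 and 6.62 in WT_PALBO, against 7.37, 7.25 and 6.9 in WT_DMSO, and fell by 0.6 (SE 0.12, adjusted p = 0.0032), a call lost only when the fit held no other groups (adjusted p = 0.057). DNAJB9 read 9.08, 8.87 and 8.96 in WT_PALBO, against 8.79, 8.43 and 8.4 in WT_DMSO. Its difference of 0.43 passed with the block only (adjusted p = 0.077, and 0.0032 with the block), as did that of ATF6 (0.26, adjusted p = 0.099 and 0.034), while 15.1% of all genes were called in that fit. The 3 probe sets of ATF6 were all higher, by 0.26 to 0.7, and 2 of them were called when all probe sets were tested. In the same comparison 3 of 19 neuroblast markers were called higher (CHGB 0.68, CHGA 0.49 and ISL1 0.43), 1 of 11 Schwann and glial markers was higher (S100B, 0.95) and 2 of 12 mesenchymal markers were lower (ACTA2, -1.15, and COL1A1, -0.88). The neuroblast list averaged 11.17 to 11.34 per WT_PALBO array and 10.98 to 11.28 per WT_DMSO array, the mesenchymal list 8.82 to 9.05 per WT_PALBO array and 8.9 to 9.26 per WT_DMSO array, and the Schwann and glial list 6.11 to 6.17 per WT_PALBO array and 6.03 to 6.11 per WT_DMSO array. None of the 11 immune markers was called, and the part of these in the ER result was not tested.

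No member passed the threshold with NOSCA in either genotype. In WT cells 28 of the 34 genes lay above 0, against 53.2% of all genes, with a median of 0.05 over the members. None was called in either fit, against 0.0165% of all genes, and 0.419% with the block, and the number of genes above 0 ranged from 20 to 31 over the alternatives. In APP cells the median was 0.04, with no call among the members in either fit (2 at an unadjusted p under 0.05). Of all genes limma called 0 (0.0%), with 959 at an unadjusted p under 0.05, and 5 with the block (0.0276%). CRELD2 gave 0.22 (95% interval 0.02 to 0.43, adjusted p = 0.92) and EIF2AK3 -0.23 (adjusted p = 0.8), the farthest members above and below 0. The interaction of NOSCA with the genotype called no gene either (895 at an unadjusted p under 0.05, 3 with the block), and its median over the members was 0.01.

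The compounds were compared with each other within a genotype in 3 pairs, each of which shares its arrays with comparisons above. In APP cells 33 of the 34 members lay higher in APP_AG494 than in APP_NOSCA, with a median of 0.16. Of all genes 45.1% lay higher. KDELR3 was called (1.03, SE 0.12, adjusted p = 0.00011, 1.56% of all genes), from 7.45, 7.59 and 7.31 in APP_AG494 and 6.48, 6.35 and 6.42 in APP_NOSCA. With the block 10 members were called, all higher, against 5.61% of all genes called and 2.82% called higher. In WT cells PALBO differed from AG494 in DNAJB9 (0.52, adjusted p = 0.047) and KDELR3 (-0.44, adjusted p = 0.048), with 3.25% of all genes called. Without any 1 of the 6 arrays both calls were lost (adjusted p 0.058 to 0.22 for DNAJB9 and 0.057 to 0.2 for KDELR3). Between PALBO and NOSCA limma called 0 members, against 3.23% of all genes. At an unadjusted limma p under 0.05 there were 2 members, and 2096 of all 18132 genes. DNAJB9 was called with the block only (0.49, adjusted p = 0.069, and 0.002 with the block).

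The other genes of the ER were taken as lists. In APP cells under AG494, 3 of 33 further ER chaperones and foldases, 4 of 22 genes of the translocon and signal peptidase and 3 of 26 genes of N-glycosylation were called higher and none lower, against 1.99% of all genes called higher. With the block these were 7, 7 and 8, against 4.72% of all genes called higher in that fit. Their medians were 0.12, 0.12 and 0.11. PDIA5, a disulfide isomerase, read 8.62, 8.6 and 8.83 in APP_AG494, against 8.24, 8.17 and 7.98 in APP_DMSO, and rose by 0.56 (SE 0.1, adjusted p = 0.0023). SERPINH1, the collagen chaperone, rose by 0.37 and the prolyl isomerase PPIB by 0.22. SEC61A1, the channel of the translocon, read 11.39, 11.41 and 11.39 in APP_AG494, against 11.12, 11.12 and 10.86 in APP_DMSO, and rose by 0.37 (adjusted p = 0.0084). TRAM1 (0.29), SEC11C (0.3) and SSR3 (0.27, named after its value was seen) rose as well. DPAGT1, the enzyme that starts the lipid-linked glycan, rose by 0.36 (adjusted p = 0.0055), ALG3 by 0.28 and MLEC by 0.36. Of 21 further ERAD genes none was called, and 2 were with the block. Among the 19 cytosolic and mitochondrial heat shock genes the median was 0.0, and no gene passed (1 with the block).

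Among 28 other genes of the unfolded protein response, 3 were higher and 2 lower under AG494 in APP cells, against 1.99% of all genes called higher and 2.76% called lower, and the counts were the same with the block (4.72% and 7.06% of all genes). CREB3L2, an ER-tethered transcription factor related to ATF6, read 11.14, 11.18 and 11.16 in APP_AG494, against 10.52, 10.53 and 10.48 in APP_DMSO, and rose by 0.65 (SE 0.1, adjusted p = 0.0006). It was lower in APP_DMSO than in WT_DMSO (11.87, 11.74 and 11.56) by 1.21 on the log2 scale, a fold change of -1.21 (adjusted p = 7.6e-08), and lower in WT_PALBO by 0.43, a fold change of -0.43 (adjusted p = 0.0094). AG494 by genotype gave 0.67 for CREB3L2 (adjusted p = 0.084, and 0.0042 with the block). BOK, which is degraded by ERAD, rose by 0.59, and WFS1, an ER membrane protein, by 0.32. BOK rose with AG494 in WT cells too, by 0.69 (adjusted p = 0.012), and the difference between the genotypes was -0.1 (adjusted p = 0.97). It was also higher in APP_DMSO than in WT_DMSO (1.53) and with PALBO (1.12), whereas WFS1 gave 0.03 with AG494 in WT cells and was not called. NFYA and NFYB, subunits of the factor NF-Y that binds CCAAT boxes, fell by 0.48 (adjusted p = 0.0089) and by 0.42 (adjusted p = 0.011). WFS1 and NFYB are named here after their values were seen. In WT cells AG494 gave -0.04 for NFYA and -0.09 for NFYB, neither called, and for both genes the difference between the genotypes was not called (adjusted p = 0.37 and 0.56). PDIA5 was also lower in APP_DMSO than in WT_DMSO, by 0.73, a fold change of -0.73 (adjusted p = 5.2e-05).

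Promoters of 31 members were at hand (RefSeq, GRCh38.p14, 250 bases before to 50 after a gene's start), and were searched on both strands for motifs known from ER stress. ERSE (CCAAT, then 9 bases of any kind, then CCACG), whose CCAAT part NF-Y binds and whose CCACG part ATF6 and XBP1 bind, was in 7 of 31 members (22.6%): CALR, CANX, CRELD2, HSP90B1, HSPA5, PDIA6 and XBP1. It was in 0.125% of all measured genes with a window (0.0769% of all 35116 windows). ERSE-II (ATTGG, 1 base of any kind, then CCACG) was in HERPUD1, HYOU1 and SDF2L1 (9.68%, against 0.111% of measured genes and 0.0541% of windows). UPRE (TGACGTGG), known as an XBP1 site, was in DNAJC10, HYOU1 and KDELR3 (9.68%, against 1.11% of measured genes and 0.729% of windows), and in HYOU1 it overlaps an ERSE-II. CARE (TGATGCAA), known as an ATF4 site, was in HERPUD1 alone (3.23%, against 0.943% of measured genes with a window). CCACG by itself, which ERSE, ERSE-II and UPRE contain, was in 23 of 31 members (74.2%, against 51.0% of measured genes). Several of these genes are those in which the motifs were first described, and a match is a description of the letters only. The 5 windows below are shown because their genes carry the values above, 5′ to 3′ on the gene's strand over the 250 bases before the start, with the motif in capitals.
XBP1, chr22:28800570-28800819, minus strand, ERSE: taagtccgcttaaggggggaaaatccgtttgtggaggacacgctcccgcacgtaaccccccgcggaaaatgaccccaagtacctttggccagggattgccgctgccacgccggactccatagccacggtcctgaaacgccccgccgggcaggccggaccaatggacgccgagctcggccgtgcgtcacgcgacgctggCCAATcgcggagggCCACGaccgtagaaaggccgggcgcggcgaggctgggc
HSPA5, chr9:125241344-125241593, minus strand, ERSE: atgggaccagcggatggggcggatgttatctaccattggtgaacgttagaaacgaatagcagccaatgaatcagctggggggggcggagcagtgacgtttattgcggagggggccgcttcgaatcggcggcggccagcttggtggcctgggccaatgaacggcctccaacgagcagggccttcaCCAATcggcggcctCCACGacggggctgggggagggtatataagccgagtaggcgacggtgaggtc
CRELD2, chr22:49918384-49918633, plus strand, ERSE on the opposite strand: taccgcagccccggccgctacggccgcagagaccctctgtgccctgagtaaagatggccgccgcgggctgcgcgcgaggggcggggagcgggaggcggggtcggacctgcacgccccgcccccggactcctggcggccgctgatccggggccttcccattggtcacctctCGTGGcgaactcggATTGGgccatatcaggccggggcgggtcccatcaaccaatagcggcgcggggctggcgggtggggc
HERPUD1, chr16:56931892-56932141, plus strand, ERSE-II: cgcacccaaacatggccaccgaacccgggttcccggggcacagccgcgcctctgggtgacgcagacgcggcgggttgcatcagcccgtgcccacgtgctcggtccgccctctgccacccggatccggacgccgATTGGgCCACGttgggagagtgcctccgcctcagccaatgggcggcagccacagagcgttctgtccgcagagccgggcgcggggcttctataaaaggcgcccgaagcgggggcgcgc
KDELR3, chr22:38467846-38468095, plus strand, UPRE on the opposite strand: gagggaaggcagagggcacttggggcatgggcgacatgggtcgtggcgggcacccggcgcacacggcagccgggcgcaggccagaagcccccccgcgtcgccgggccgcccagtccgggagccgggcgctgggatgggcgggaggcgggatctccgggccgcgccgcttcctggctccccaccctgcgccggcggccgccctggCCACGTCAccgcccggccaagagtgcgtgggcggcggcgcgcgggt

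**Figure D5:**
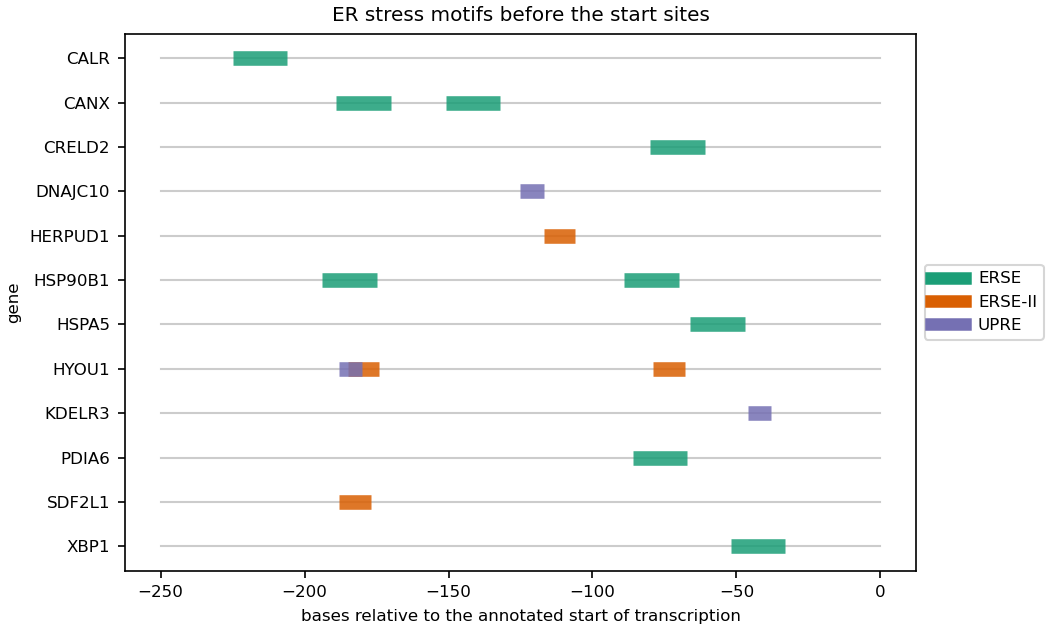
Position of exact ERSE, ERSE-II and UPRE matches (coloured bars) in the 250 bases before the annotated start (x axis) of the 12 members that hold one (y axis). The UPRE of KDELR3 lies 46 to 39 bases before the start and the ERSE of HSPA5 66 to 48 bases before it.

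Under AG494 in APP cells the 10 members with an ERSE or ERSE-II all lay above 0, with a median of 0.28 (0.11 to 0.53), and the 21 members with a promoter window and neither motif had a median of 0.16 (-0.15 to 1.04). In APP_DMSO relative to WT_DMSO the 10 all lay below 0 (median -0.23), and the 21 had a median of -0.03 with 10 above 0. For the difference between the genotypes in the AG494 response the medians were 0.35 and 0.16. These 3 comparisons all contain the APP_DMSO arrays, and so do NOSCA in APP cells and NOSCA by genotype, listed next. Elsewhere the medians with and without the motifs lay closer in most comparisons: 0.16 and 0.15 for the genotype under AG494, 0.06 and 0.04 for NOSCA and 0.02 and 0.06 for PALBO in WT cells, 0.01 and 0.01 for NOSCA by genotype, -0.08 and -0.01 for AG494 in WT cells, 0.09 and 0.03 for NOSCA in APP cells, and -0.2 and -0.1 for the genotype under NOSCA. Between compounds they were 0.21 and 0.16 for AG494 minus NOSCA in APP cells, 0.1 and 0.02 for PALBO minus AG494 and -0.08 and -0.02 for PALBO minus NOSCA. The 10 also lay all on the same side of 0 in comparisons without APP_DMSO arrays. For the genotype under NOSCA 0 of the 10 and 6 of the 21 lay above 0. The counts above 0 were 10 and 15 for NOSCA in WT cells and 10 and 21 for AG494 minus NOSCA in APP cells. For the genotype under AG494 they were 9 and 17. No test was made of these medians.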

How the data were processed

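Total RNA, 25 ng a culture, was amplified, and labelled cDNA was hybridised to PrimeView arrays, per the labels' protocols. The authors' table holds log2 values of probe set intensity. The submitters' processing notes name RMA and the affy package, and their versions are not given in the sources used here. The values were used as deposited. Of 49372 probe sets, 44988 had 1 gene symbol, and the brightest per gene stood for it (18132 genes). No dim gene was filtered out. The annotation table of the platform gave the symbols, updated through Entrez ID for 44961 probe sets.

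Limma 3.58.1 (R 4.3.3, lmFit and eBayes) fitted 7 groups over 21 arrays with 14 residual and 4.27 prior degrees of freedom. The 13 contrasts were two-sided, with Benjamini-Hochberg adjustment within each. A check on simulated data covered 1 of them, PALBO in WT cells, with noise drawn independently for each array. The interactions and the block fit were not checked in this way. Replicates are numbered in accession order. Deviations correlated at 0.226 to 0.685 between arrays of a run of title numbers (63 pairs) and -0.529 to 0.0889 between other runs and groups (126 pairs). All 21 arrays were closest to one of their own run, so the runs pair the arrays. Alternatives were the block, other normalisations, priors, weights, probe set rules and each array left out. All but the first held no block. All members could be named, and of each other list up to 3 called genes with the lowest p. Members and lists were chosen with earlier results of these data known, and the motifs after the data were seen.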

Additional observations from a re-analysis of the deposited data

Results flagged for a closer look

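The response of KDELR3 to AG494 differed between the genotypes. It was 1.04 in APP cells and -0.16 in WT cells on the log2 scale, and the test of the difference itself gave 1.2 (SE 0.17, limma, adjusted p = 0.004). The difference was above 0 in 3 of 3 runs.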

How the results depend on the processing

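No called member changed sign under the alternatives that hold 1 value per gene. Single probe sets could differ in sign, without being called. For the genotype under AG494 a probe set of DNAJB9 gave -0.32, and under NOSCA a probe set of HERPUD1 gave 0.04. With the replicate block, which follows the pairing of the arrays by run, the members called were 10 between the genotypes under vehicle, 8 under AG494 and 10 under NOSCA. With the same block they were 15 for AG494 in APP cells, 1 for AG494 and 3 for PALBO in WT cells, 4 for AG494 by genotype, 4 for PALBO minus AG494, 1 for PALBO minus NOSCA and 10 for AG494 minus NOSCA. Over all genes the block moved the calls to 3151 from 1677 for the genotype under vehicle, 3068 from 1635 under AG494 and 2680 from 1306 under NOSCA. For AG494 in APP cells it gave 2137, against 861 without it, for PALBO 2729 against 1265, and for AG494 and NOSCA in WT cells 358 against 46 and 76 against 3. AG494 by genotype gave 229 against 7, NOSCA by genotype 3 against 0, PALBO minus AG494 1577 against 589, PALBO minus NOSCA 1311 against 585 and AG494 minus NOSCA 1017 against 283. With all probe sets tested, members with at least 1 probe set called were 7 (genotype under vehicle), 10 (under NOSCA), 8 (AG494 in APP cells), 2 (PALBO), 1 (PALBO minus AG494) and 4 (AG494 minus NOSCA). Averaging each gene's probe sets gave 3 (PALBO), 1 (genotype under AG494) and 4 (AG494 minus NOSCA). It also gave 6 higher for AG494 in APP cells, 1 higher and 4 lower for the genotype under vehicle, and 0 higher and 7 lower under NOSCA. Only the compared groups in the fit, with fewer arrays to estimate the spread, gave 1 (genotype under vehicle), 2 (AG494 in APP cells), 0 (PALBO) and 0 (PALBO minus AG494). Array weights gave 6 (genotype under AG494, 5 higher and 1 lower) and 2 (AG494 by genotype). They also gave 6 higher for AG494 in APP cells, and 1 higher and 6 lower for the genotype under NOSCA. Not every smaller move is listed here. Quantile normalisation again, centred medians and a trended robust prior each gave 1 for PALBO minus AG494, and centred medians and leaving out the dimmest genes each gave 1 for PALBO minus NOSCA. The totals from testing all probe sets count probe sets out of 44988 instead of genes, so they cannot be set against the gene counts. They were 3657, 3491 and 2735 for the genotype under vehicle, AG494 and NOSCA, 1717 for AG494 in APP cells, 75, 5 and 2675 for AG494, NOSCA and PALBO in WT cells, 26 for AG494 by genotype, and 1202, 1053 and 515 for the compound pairs. Over all genes, only the compared groups in the fit gave 887 (genotype under vehicle), 489 (AG494 in APP cells), 0, 0 and 518 (AG494, NOSCA and PALBO in WT cells) and 293, 286 and 179 for the pairs. Array weights gave 1400 for AG494 in APP cells, 79 for AG494 by genotype, 1007 for PALBO minus AG494 and 545 for AG494 minus NOSCA. AG494 by genotype had 19 calls with averaged probe sets, 4 without the dimmest genes and 11 with centred medians, and NOSCA in WT cells 12 with averaged probe sets. The cause of these moves was not tested. Some member counts have no all-gene total here, among them those with averaged probe sets and those with 1 array left out. They cannot be set against the share of all genes. Leaving out 1 array gave 1 to 6 calls for the genotype under vehicle (1 without WT_DMSO replicate 2 or APP_DMSO replicate 3, 6 without WT_DMSO replicate 3) and 1 to 5 for AG494 in APP cells (1 without APP_DMSO replicate 3). It gave 1 to 3 and 2 to 5 for the genotype under AG494 and NOSCA, 1 to 2 for PALBO and for AG494 by genotype, 0 to 0 for AG494 or NOSCA in WT cells, NOSCA in APP cells, NOSCA by genotype and PALBO minus AG494, 0 to 1 for PALBO minus NOSCA and 1 to 1 for AG494 minus NOSCA.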
